A study of Glycine max with 20 samples.

Results

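The genes described here are the soybean counterparts of the ethylene perception and signalling pathway of Arabidopsis, from the receptors to the transcription factors, in developing seed coats of a standard line and a minute hilum isoline. A gene was included when the best Arabidopsis match of its model in the deposited annotation was ETR1, ETR2, EIN4, ERS1, ERS2, RAN1, CTR1, EIN2, EIN3, EIL1, EBF1, EBF2 or ETO1, and 1 model was kept for each gene, the one with the highest mean RPKM. The rule found 47 genes, with 99 models, among 56044 genes and 88647 models in all. They were 14 receptor genes (2 of ETR1 type, 3 of ETR2 type, 7 of EIN4 type and 2 of ERS1 type), 4 genes of RAN1 type, 6 of CTR1 type, 3 of EIN2 type, 5 of EIN3 type, 1 of EIL1 type, 8 of EBF1 type and 6 of ETO1 type. No gene had ERS2 or EBF2 as its best match. These names give the closest Arabidopsis protein only, and no soybean gene was assigned a function here.

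Ethylene is a gaseous plant hormone associated with ripening, senescence, abscission and responses to stress. In Arabidopsis its receptors are negative regulators in the endoplasmic reticulum: without ethylene they keep the kinase CTR1 active, which holds EIN2 in check, and when ethylene binds to the copper cofactor, delivered by the transporter RAN1, EIN2 is released and the transcription factors EIN3 and EIL1 accumulate. The F-box proteins EBF1 and EBF2 mark EIN3 and EIL1 for degradation, and ETO1 acts upstream of perception by promoting the turnover of an ethylene biosynthesis enzyme. Transcripts of ETR2, ERS1, ERS2 and EBF2 are known to rise with ethylene in Arabidopsis seedlings. Ethylene itself was not measured in these libraries.

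RNA-Seq was carried out on 20 libraries of seed coat tissue from greenhouse plants of UC7, the standard line Clark 63 with genotype ii R T Mi g, and UC413, the minute hilum isoline with genotype ii R t mi G. UC413 was derived by 6 backcrosses to Clark 63, so that it differs from UC7 at T and G as well as at Mi and in any linked segments of the donor, and these cannot be told apart, while both lines carry ii and R. The extended hilum (EH) is the hilum with a small ring of the seed coat around it, taken from seeds of 10 to 25 mg (EH10), 25 to 50 mg (EH25), 50 to 100 mg (EH50) and 100 to 200 mg (EH100), with 2 libraries for each isoline at the first 3 stages and 1 at EH100. Whole seed coats (WS10, WS25 and WS50) had 1 library for each isoline and stage.

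The libraries held 91768975 to 128803969 alignments. Alignments to the rDNA region took up 3.80% to 44.4% of the UC7 libraries tested but 0.386% to 1.03% of the UC413 libraries, so size factors (median of ratios, 0.574 to 1.02 in UC7 and 1.15 to 1.24 in UC413) were applied, and the resulting values are called scaled RPKM below. Seed coat flavonoid genes, 38 genes matching BAN, TT4, DFR, LDOX and TT12, summed to between 238 and 1880 scaled RPKM in every library, with 22 to 26 of the 38 genes over 1. Their sums were 1880 and 1876 in UC7 EH10 against 1385 and 1256 in UC413 EH10, and 730 and 819 against 316 and 397 at EH50. At EH25 the isolines overlapped, with 1277 and 1701 in UC7 and 1397 and 1064 in UC413. Among the single pairs UC413 was the higher at WS25 only (1106 in UC7 and 1608 in UC413). The 13 xylem genes matching XCP1, XCP2 and IRX3 summed to 36.6 and 42.0 in UC7 EH10 against 78.3 and 78.9 in UC413 EH10, and to 245 and 228 against 280 and 259 at EH50. The xylem sums were thus higher in UC413 without overlap at both EH10 and EH50, whereas at EH25 the isolines overlapped. UC413 was also the higher in every single pair, at EH100 and in the whole seed coats. The xylem sums rose from EH10 to EH50 in both isolines. The 36 endosperm genes summed to at most 2.05 in any library, and the 11 embryo genes to 3.15 to 5.32 at EH10 and up to 158 in UC7 EH100, with the LEC1 gene at 0 throughout. The part of these differences in the results was not tested. In such bulk samples, fewer cells of a type and less RNA per cell cannot be told apart. At EH50 replicate 1 of both isolines was made with a non-stranded kit and replicate 2 with a stranded kit, and the EH100 and WS50 libraries were non-stranded.

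The genes covered a wide range of transcript levels, with 4 of the 5 EIN3-type transcription factors at the top. Over the 20 libraries the mean level was highest for the EIN3-type gene Glyma.02G274600, at 35.0 ± 6.53 scaled RPKM (SD, n = 20), followed by Glyma.14G041500 at 30.7 ± 6.64 (SD, n = 20). Their spreads overlapped. Each SD here spans both isolines, all stages and both tissues, and genes were not compared with each other within libraries. The least abundant EIN3-type gene, Glyma.13G076800, was at 12.3 ± 1.70 (SD, n = 20). The only EIL1-type gene, Glyma.06G314000, had between 0 and 5 alignments in any library and was not tested. The EBF1-type genes, which encode the F-box proteins that act on EIN3 in Arabidopsis, ranged from 19.7 ± 6.70 for Glyma.06G068400 to 0.682 ± 0.290 for Glyma.17G192600 (SD, n = 20).

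The receptor genes were at intermediate levels. The ETR2-type gene Glyma.10G188500 had the highest mean, at 14.2 ± 3.70, next to the ERS1-type gene Glyma.03G216700 at 12.8 ± 1.43, and their spreads over the libraries overlapped (SD, n = 20). The EIN4-type genes divided into Glyma.10G008500 at 9.78, Glyma.20G221800 at 5.39 and Glyma.10G167300 at 4.32 scaled RPKM on the one side, and 4 genes at 0.307 to 0.834 on the other, 3 of which (Glyma.03G251700, Glyma.18G069300 and Glyma.17G181400, the least abundant receptor gene) were too low to be tested. The EIN2-type genes ranged from 6.31 ± 1.28 for Glyma.03G181400 to 10.4 ± 1.64 for Glyma.10G058300 (SD, n = 20). The RAN1-type genes ranged from 3.99 ± 0.941 for Glyma.15G158300 to 10.3 ± 4.99 for Glyma.08G087300 (SD, n = 20). The CTR1-type genes ranged from 1.54 ± 0.385 for Glyma.10G104500 to 4.99 ± 0.764 for Glyma.02G165800, overlapping the less abundant RAN1-type genes, and the ETO1-type genes from 0.70 ± 0.205 for Glyma.18G059700 to 3.64 ± 0.959 for Glyma.11G167200 (SD, n = 20).

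**Figure D1:**
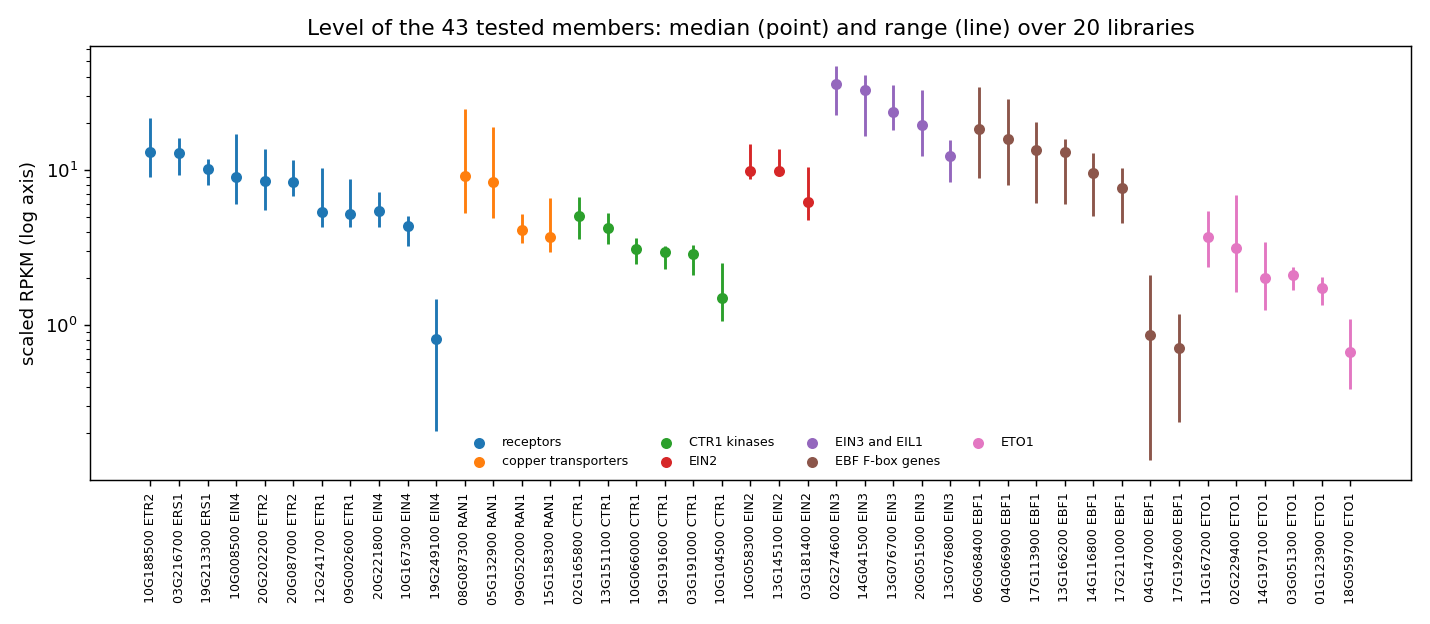
Level of the 43 tested genes in scaled RPKM on a log axis, with the median (point) and the lowest and highest of 20 libraries (line), coloured by role and ordered by mean within a role. Of the EIN3-type genes 4 stand highest, and 1 EIN4-type, 2 EBF1-type and 1 ETO1-type gene lie below 1 scaled RPKM.

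Between the isolines, 7 of the 43 genes tested passed the test at EH10, all of them higher in UC413, and 1 and 6 genes passed at EH25 and EH50, again all higher in UC413. Most of them belonged to perception, namely 2 RAN1-type genes, 3 ETR2-type genes, 2 ETR1-type genes and 1 EIN4-type gene, with a single EBF1-type gene besides. No CTR1, EIN2, EIN3, ERS1 or ETO1-type gene was called at any of the 3 stages. This depended on the fit. With equal sums outside the rDNA region 3 of the 6 CTR1-type genes were called higher at EH10 and 1 at EH50, and with the RPKM as deposited all 6 CTR1, 3 EIN2, 2 ERS1 and 6 ETO1-type genes and 3 of the 5 EIN3-type genes were called higher at EH10, where 64.3% of all models were called. With EH50 fitted alone the ETO1-type gene Glyma.02G229400 was called higher. A call is a Benjamini-Hochberg adjusted p under 0.05 in limma, over the 57568 models that reached an RPKM of 1 in 2 or more of the 12 libraries of the first 3 stages. Of all models tested, 6.36% were called at EH10 (3.95% higher in UC413), 2.21% at EH25 (1.46% higher) and 8.07% at EH50 (4.41% higher), against 16.3%, 2.33% and 14% of the ethylene genes. The 43 genes had median log2 fold changes of 0.18, 0.05 and 0.04 at EH10, EH25 and EH50, beside -0.02, -0.01 and -0.02 over all models. At an unadjusted p under 0.05 the genes numbered 19, 9 and 14, or 44.2%, 20.9% and 32.6% of the 43, beside 24.9%, 19% and 27.6% of all models, and of these genes 15, 4 and 10 were higher in UC413. With the replicate number as a block within each stage the calls were 5, 1 and 6, or 11.6%, 2.33% and 14% of the genes, beside 11%, 3.68% and 13.4% of all models, so that the shares at EH10 and EH50 were then near the background.

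**Figure D2:**
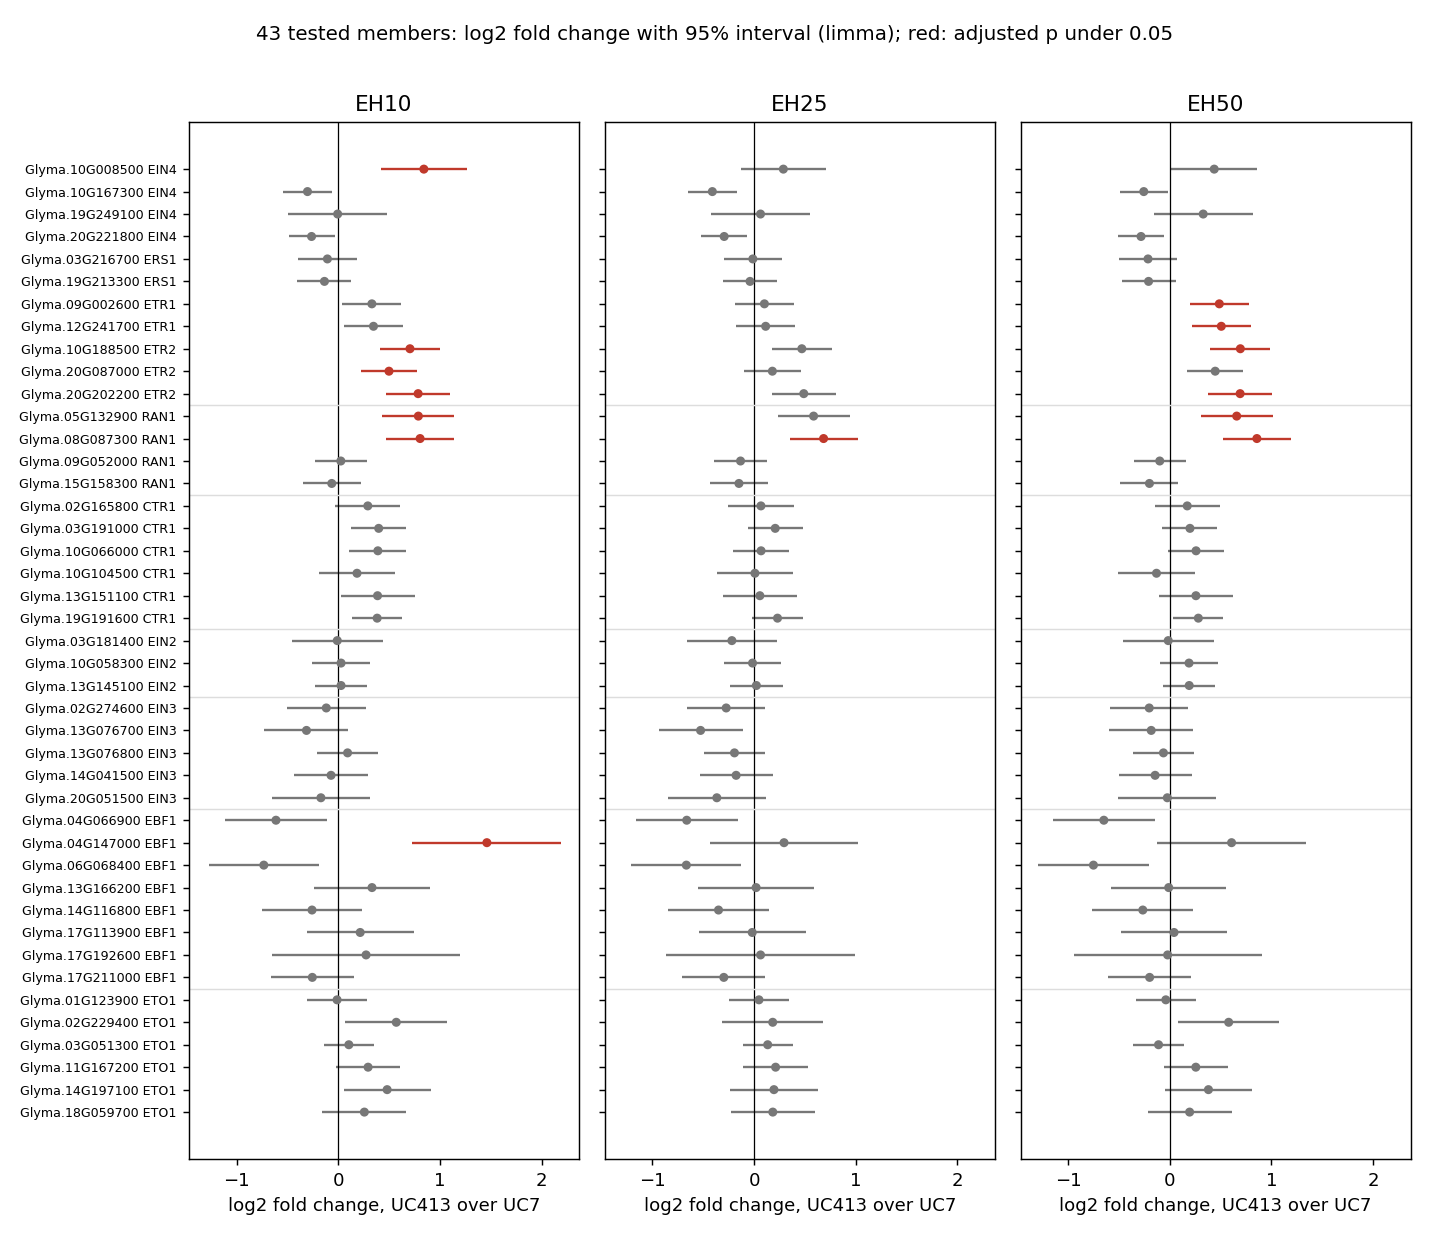
The log2 fold change of UC413 over UC7 for each of the 43 genes at EH10, EH25 and EH50 with its 95% interval from limma, grouped by role and named by locus and Arabidopsis match, with genes at an adjusted p under 0.05 in red. The 7, 1 and 6 red genes all lie to the right of 0.

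These calls rested on pairs of libraries. Without UC413 EH10 replicate 1 or 2, or without UC7 EH10 replicate 1, the EH10 count was 0 (1.09% to 1.52% of all models called), and it was 3 without UC7 EH10 replicate 2 (4.88%). The EH50 count was 0 without UC7 EH50 replicate 1 or 2 or UC413 EH50 replicate 1 (0.299% to 1.06% of all models), 1 without UC413 EH50 replicate 2 (1.79%), and 3 without either UC413 EH10 replicate (4.37% and 4.39%). The EH25 count was 2 without UC413 EH25 replicate 1 (1.08%), namely the RAN1-type genes Glyma.05G132900 and Glyma.08G087300. It was also 2 without UC7 EH25 replicate 2 (6.03%), but these were the EIN3-type genes Glyma.13G076700 and Glyma.20G051500, both lower in UC413, and it was 0 without any other of the 12 libraries (0.433% to 2.43%). In such fits the lone library of a group is taken to vary like the other groups. With 2 libraries a group, a lack of overlap between the isolines was frequent. At EH10, EH25 and EH50 the isolines overlapped in only 14, 24 and 11 of the 47 genes. The share over all models was not computed, so a lack of overlap is given below as a description only.

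Transcripts of the 2 RAN1-type genes with the higher levels, Glyma.08G087300 and Glyma.05G132900, were higher in UC413 than in UC7 in each of the 10 pairs of libraries with the same tissue, stage and replicate number. RAN1 in Arabidopsis is a P-type ATPase that supplies copper to the receptors. At EH10 Glyma.08G087300 had 5.24 and 5.91 scaled RPKM in UC7 and 9.36 and 10.5 in UC413. At EH25 it had 6.80 and 6.84 in UC7 and 9.75 and 12.7 in UC413. At EH50 it had 9.01 and 10.2 in UC7 and 18.7 and 16.5 in UC413. The isolines did not overlap at any of these stages, and the level in UC413 at EH10 was about that of UC7 at EH50. The log2 fold change was 0.80 (SE 0.15, limma adjusted p = 0.0155) at EH10, 0.68 (SE 0.15, adjusted p = 0.0495) at EH25 and 0.86 (SE 0.15, adjusted p = 0.0144) at EH50, that is 1.75-, 1.61- and 1.81-fold.

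The companion gene Glyma.05G132900 followed the same order. It had 4.93 and 5.29 scaled RPKM in UC7 EH10 and 8.39 and 9.65 in UC413 EH10. It had 6.33 and 5.89 against 7.82 and 11 at EH25, and 8.43 and 8.71 against 14.2 and 13.2 at EH50. The isolines again did not overlap at any stage. The log2 fold change was 0.79 (SE 0.16, limma adjusted p = 0.0217) at EH10 and 0.66 (SE 0.16, adjusted p = 0.0361) at EH50, while at EH25 it was 0.59 and was not called (adjusted p = 0.091). The other 2 RAN1-type genes, Glyma.09G052000 and Glyma.15G158300, had log2 fold changes of -0.20 to 0.02 over the 3 stages, with 95% intervals that lay between -0.49 and 0.28. Genes of 1 type can share reads, since a read was counted for each model to which it aligned, so the 2 genes called are not independent measurements.

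In the single libraries the RAN1-type pair was again higher in UC413, but by little in whole seed coats. Glyma.08G087300 had 14.7 scaled RPKM in UC7 and 24.7 in UC413 at EH100. In whole seed coats it had 5.76 and 6.59 at WS10, 5.98 and 7.85 at WS25 and 8.62 and 10.5 at WS50 (UC7 first). Glyma.05G132900 had 14.9 and 18.9 at EH100, and 5.53 and 6.0, 6.04 and 6.35, and 8.42 and 9.49 in the whole seed coats. The difference between the isolines in whole seed coats has no replicate, and whether it is smaller than in the extended hilum was not tested.

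The 3 ETR2-type receptor genes had higher transcript levels in UC413 at EH10. ETR2 encodes a receptor whose transcript is raised by ethylene in Arabidopsis. Glyma.20G202200 had 5.51 and 6.41 scaled RPKM in UC7 EH10 against 10.7 and 10.1 in UC413. It had 6.91 and 6.78 against 8.60 and 11 at EH25, and 7.76 and 7.81 against 12 and 13.5 at EH50. The isolines were apart at each stage, and all 4 single pairs had the same order, from 7.99 against 8.31 at WS10 and 6.70 against 10.4 at EH100 to 7.33 against 11.7 at WS25 and 9.68 against 13.6 at WS50. The log2 fold change was 0.79 (SE 0.14, limma adjusted p = 0.0133) at EH10, 0.49 (adjusted p = 0.11) at EH25 and 0.69 (SE 0.14, adjusted p = 0.0226) at EH50.

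Glyma.10G188500, the most abundant receptor gene, gave nearly the same pattern. It had 8.93 and 9.65 scaled RPKM in UC7 EH10 and 16 and 14.6 in UC413 EH10. It had 11 and 10.3 against 13.3 and 16.5 at EH25, and 12.7 in both UC7 libraries against 20.0 and 21.5 at EH50. No library of UC413 fell within the UC7 range at any of these stages. The single libraries had 12 in UC7 and 19.0 in UC413 at EH100, 11.5 and 12.4 at WS10, 10.7 and 16.6 at WS25, and 13.9 and 19.7 at WS50. The log2 fold change was 0.71 (SE 0.13, limma adjusted p = 0.0161) at EH10, 0.47 (adjusted p = 0.10) at EH25 and 0.69 (SE 0.13, adjusted p = 0.0185) at EH50. All 7 tested models of this gene were called at EH10 and at EH50, but they share reads and are not separate measurements.

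The remaining ETR2-type gene, Glyma.20G087000, showed a smaller difference. It had 7.0 and 7.33 scaled RPKM in UC7 EH10 against 10.6 and 9.89 in UC413 EH10. At EH25 the isolines overlapped, with 8.01 and 6.74 in UC7 and 7.86 and 8.89 in UC413, whereas at EH50 they did not, with 7.59 and 7.36 against 9.94 and 10.6. The single libraries had 8.56 and 11.5 at EH100, 8.02 and 9.12 at WS10, 8.21 and 8.98 at WS25, and 7.27 and 10.7 at WS50, with UC413 the higher of each. It was called at EH10 only (log2 fold change 0.50, SE 0.12, limma adjusted p = 0.0452), and not at EH50 (0.45, adjusted p = 0.056). With the replicate number as a block within each stage the EH10 call was lost (adjusted p = 0.055).

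**Figure D3:**
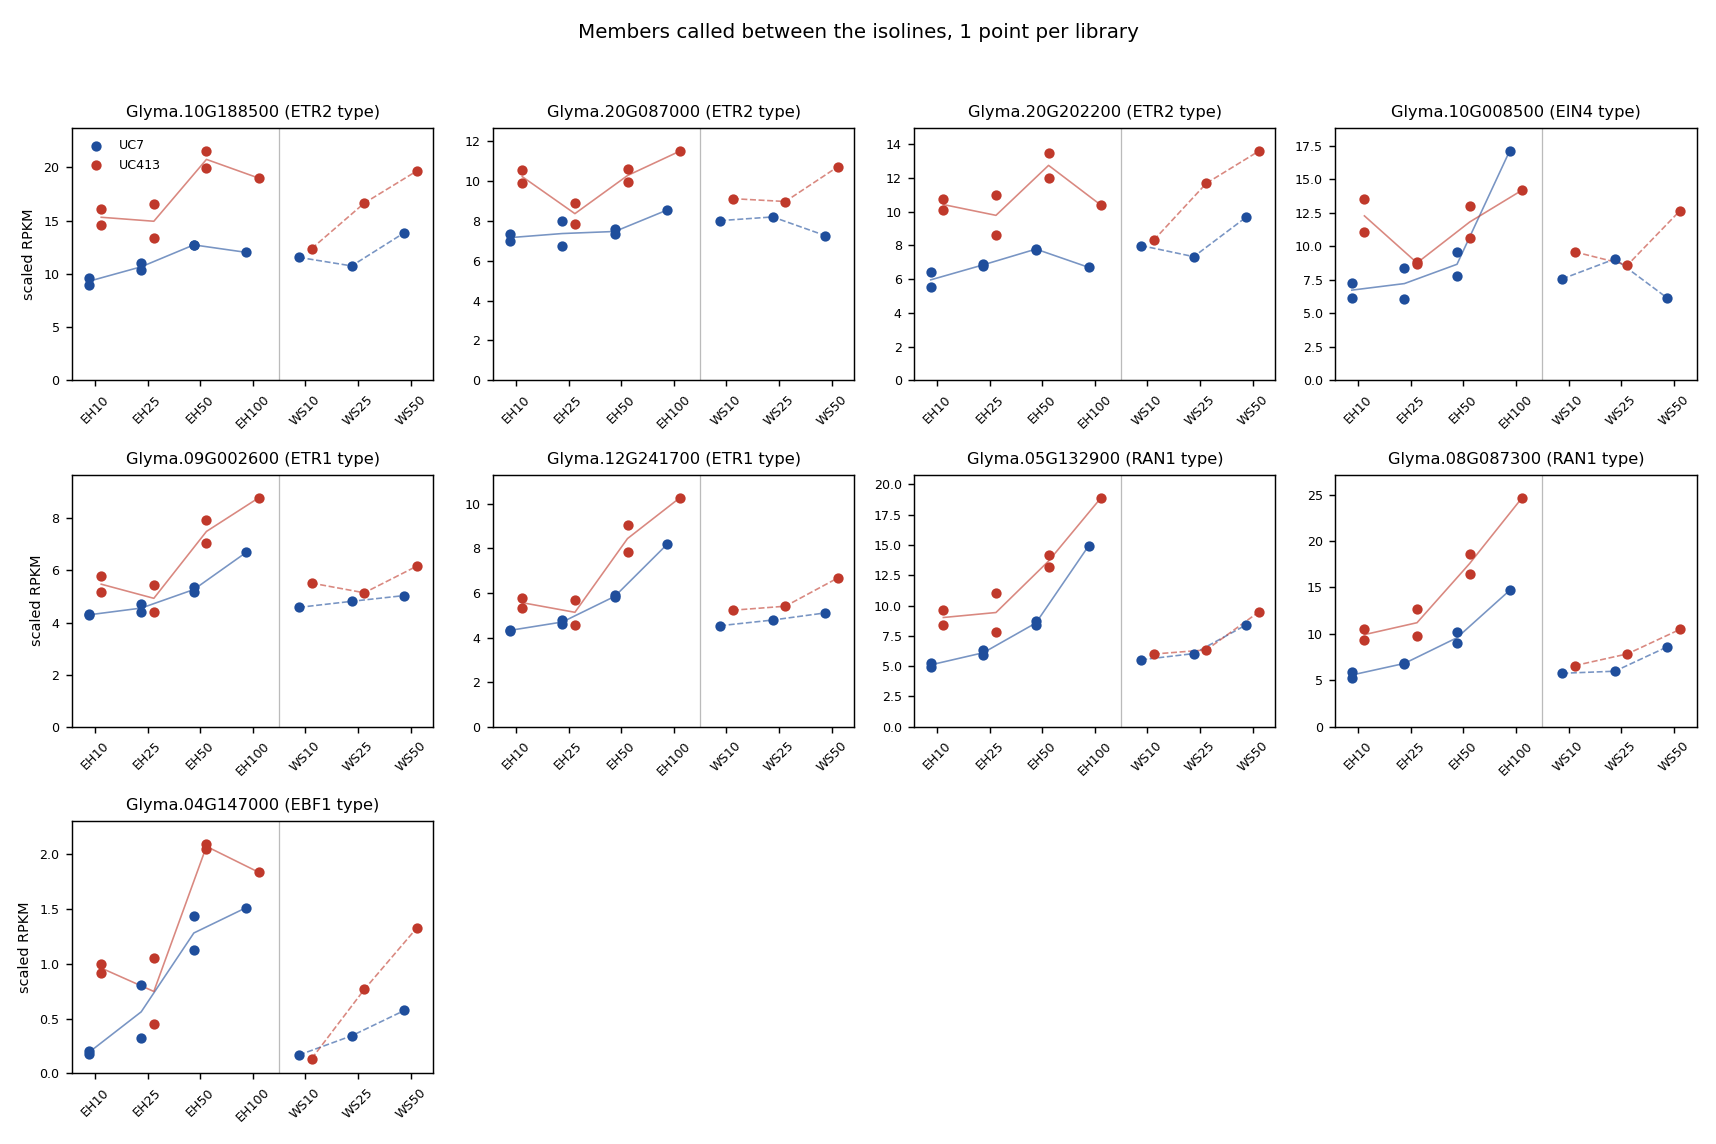
Scaled RPKM of the 9 genes called between the isolines, 1 point per library, in extended hilum (left of the grey line) and whole seed coat (right) by seed weight stage, with UC7 in blue, UC413 in red and lines through the group means. In the RAN1-type and 2 of the ETR2-type genes every UC413 point of a stage lies above the UC7 points of that stage.

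The 2 ETR1-type genes had higher values in UC413 at EH10 and EH50, with a call at EH50 only, and neither was called in the change of the isoline difference from EH10 to EH50. ETR1 is the founding member of the receptor family and has a histidine kinase domain. Glyma.12G241700 had 4.33 and 4.30 scaled RPKM in UC7 EH10 and 5.78 and 5.34 in UC413 EH10, a difference that was not called (log2 fold change 0.35, limma adjusted p = 0.14). The isolines overlapped at EH25, with 4.61 and 4.78 in UC7 and 4.58 and 5.68 in UC413. At EH50 they were apart, at 5.81 and 5.89 against 9.02 and 7.85 (0.51, SE 0.13, adjusted p = 0.0432). The same order was found in the single libraries, at 8.19 against 10.3 at EH100, 4.53 against 5.22 at WS10, 4.78 against 5.40 at WS25 and 5.10 against 6.67 at WS50.

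Glyma.09G002600, the other ETR1-type gene, had 4.28 and 4.31 scaled RPKM in UC7 EH10 and 5.77 and 5.17 in UC413 EH10. It had 4.41 and 4.70 against 4.42 and 5.44 at EH25, and 5.16 and 5.37 against 7.94 and 7.05 at EH50. Again the isolines overlapped at EH25 only. It was called at EH50 (log2 fold change 0.49, SE 0.13, limma adjusted p = 0.0488). All 17 of its tested models were called too, but they share reads and are not separate measurements. The EH50 call was lost when only 1 model per gene was tested, and also without a filter. The single libraries had 6.70 and 8.79 at EH100, 4.58 and 5.51 at WS10, 4.81 and 5.14 at WS25, and 5.03 and 6.16 at WS50.

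Of the EIN4-type genes only Glyma.10G008500 was called, and others had values in the opposite direction. The cDNA model of Glyma.10G008500 is 1286 nt long, against 3092 and 2456 nt for Glyma.10G167300 and Glyma.20G221800. It was counted as a receptor gene by its best match alone. EIN4 belongs to the receptor subfamily without a full set of histidine kinase motifs, as does ETR2. Glyma.10G008500 had 7.29 and 6.15 scaled RPKM in UC7 EH10 and 11 and 13.5 in UC413 EH10 (log2 fold change 0.84, SE 0.19, limma adjusted p = 0.0318). It had 8.36 and 6.06 against 8.86 and 8.65 at EH25, and 9.55 and 7.75 against 13 and 10.6 at EH50. UC413 was above UC7 at each stage without a call at EH25 (adjusted p = 0.44) or EH50 (adjusted p = 0.17). Among the single libraries UC413 was lower at EH100, with 14.2 against 17.1, and at WS25, with 8.59 against 9.04, and higher at WS10, with 9.57 against 7.56, and at WS50, with 12.7 against 6.12.

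The EIN4-type genes Glyma.10G167300 and Glyma.20G221800 had log2 fold changes of -0.41 to -0.26 over the 3 stages, with adjusted p of 0.082 to 0.16 in limma. In each stage both UC413 libraries were below both UC7 libraries for these genes, and such a lack of overlap was frequent among the genes. With the RPKM as deposited, UC413 was the lower in only 5 of the 10 pairs for each gene, against 9 of 10 after scaling. The 2 ERS1-type genes, Glyma.03G216700 and Glyma.19G213300, had log2 fold changes of -0.21 to -0.01, none called, and their 95% intervals lay between -0.50 and 0.28. ERS1 is the other receptor type of this list whose transcript ethylene is known to raise in Arabidopsis.

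Downstream of the receptors no gene was called between the isolines, apart from 1 of EBF1 type. The 6 CTR1-type genes had log2 fold changes of 0.18 to 0.40 at EH10, 0.01 to 0.23 at EH25 and -0.13 to 0.28 at EH50, and the lowest adjusted p in limma was 0.071, for Glyma.19G191600 at EH10. All 6 were positive at EH10 and EH25 with size factors, where 47.8% and 48.1% of all models were positive. They were also positive under the other scalings. With the RPKM as deposited and with equal sums outside the rDNA region all models moved toward UC413, so the sign there adds little. The shift was smallest with upper quartile scaling. The medians over all models at EH10 and EH25 were 0.71 and 0.32 with the RPKM as deposited. They were 0.15 and 0.10 with equal sums outside the rDNA region, and 0.02 and 0.03 with upper quartile scaling. The 3 EIN2-type genes had log2 fold changes of -0.22 to 0.19, with 95% intervals between -0.66 and 0.47. EIN2 is the membrane protein that carries the signal from the endoplasmic reticulum to the nucleus.

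For the 5 EIN3-type genes the log2 fold changes ranged from -0.31 to 0.09 at EH10, -0.53 to -0.18 at EH25 and -0.20 to -0.02 at EH50, without a call. Their direction depended on the scaling: UC413 was the higher in 1, 0 and 0 of the 5 genes at the 3 stages with size factors, but in 5, 3 and 5 with the RPKM as deposited in 4, 0 and 2 with equal sums outside the rDNA region and in 1, 0 and 1 with upper quartile scaling. The 6 ETO1-type genes had log2 fold changes of -0.01 to 0.57 at EH10, 0.05 to 0.21 at EH25 and -0.11 to 0.58 at EH50, without a call, and the largest value of EH10 and of EH50 was that of Glyma.02G229400.

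The EBF1-type genes were divided. Glyma.04G147000, a weakly expressed gene, had 0.200 and 0.179 scaled RPKM in UC7 EH10, from 44 and 52 alignments, against 0.919 and 1.00 in UC413 EH10, from 369 and 364 alignments. The isolines overlapped at EH25, with 0.802 and 0.321 in UC7 and 0.446 and 1.05 in UC413, and were apart at EH50, with 1.44 and 1.12 against 2.09 and 2.05. It was called at EH10 (log2 fold change 1.46, SE 0.33, limma adjusted p = 0.0318), on the scale of log2(scaled RPKM + 0.25), which understates changes of weakly expressed genes, and the value was 2.34 with a pseudocount of 0.05 and 0.72 with a pseudocount of 1. With the replicate block the call was lost (adjusted p = 0.059). The single libraries had 1.51 and 1.83 at EH100, 0.168 and 0.134 at WS10, 0.343 and 0.765 at WS25, and 0.573 and 1.33 at WS50, so that UC413 was the lower at WS10.

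The 2 most abundant EBF1-type genes had lower values in UC413. Glyma.06G068400 had 27.8 and 20.3 scaled RPKM in UC7 EH10 against 12.3 and 16.5 in UC413, 20.7 and 27.8 against 12.3 and 18.3 at EH25, and 32.4 and 34.1 against 21.6 and 17.9 at EH50. Glyma.04G066900 had 20.8 and 14.7 against 9.95 and 13 at EH10, 18.5 and 20.3 against 10.1 and 14.6 at EH25, and 28.6 and 28.8 against 20.2 and 16.3 at EH50. The isolines did not overlap for either gene at any stage, which was frequent among the genes. UC413 was the lower in 10 of 10 pairs, most of which repeat that lack of overlap. With the RPKM as deposited UC413 was lower in 9 and 8 of the 10 pairs. Its EH10 mean was then the higher one, at 17.6 against 16.6 for Glyma.06G068400 and 14.0 against 12.3 for Glyma.04G066900. The log2 fold changes were -0.75 to -0.61 and none was called in limma (adjusted p of 0.085 to 0.18), whereas with EH50 fitted alone both were called at EH50 (adjusted p = 0.035 and 0.045). For the other 5 EBF1-type genes the log2 fold changes were between -0.35 and 0.33. Of these, Glyma.17G211000 was lower in UC413 without overlap at each stage, and Glyma.14G116800 at EH10 and EH50. For each of them UC413 was the higher in 1 of 10 pairs, but in 6 with the RPKM as deposited. Glyma.13G166200 and Glyma.17G113900 were higher in UC413 without overlap at EH10 only, and Glyma.17G192600 overlapped throughout.

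Since the replicates of EH50 differed in their kit, the isolines were also compared within each kit. The log2 ratio of UC413 to UC7 with the non-stranded and with the stranded kit was 1.03 and 0.68 for Glyma.08G087300 and 0.73 and 0.58 for Glyma.05G132900. It was 0.61 and 0.77 for Glyma.20G202200, 0.64 and 0.75 for Glyma.10G188500, 0.61 and 0.40 for Glyma.12G241700, and 0.60 and 0.38 for Glyma.09G002600. The 6 genes called at EH50 were higher in UC413 with either kit. They were called from these same libraries, in which the isolines did not overlap. This order was therefore fixed beforehand and is not a test of the kit. With the stranded libraries only, in which EH50 has 1 library for each isoline, 2 genes were called at EH10 (Glyma.08G087300 and Glyma.20G202200, adjusted p = 0.046 for each), where 2.92% of all models were called, and none at EH50, where 0.0122% were.

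Across seed development the called changes of the ethylene genes were rises in UC413 from EH25 to EH50, in 4 of the 43 genes. Of all models, 5.48% were called in that comparison, against 9.3% of these genes. Those genes were the 2 of ETR1 type, the RAN1-type gene Glyma.08G087300 and the ETO1-type gene Glyma.02G229400. In UC7 no gene was called from EH10 to EH25 (background 0.155%) or from EH25 to EH50 (background 1.18%), and in UC413 none was called from EH10 to EH25, where no model at all was called (background 0%). At an unadjusted p under 0.05 these counts were 2, 9 and 3 (4.65%, 20.9% and 6.98% of the 43 genes, beside 12.2%, 13.9% and 5.83% of all models), and limma-voom on the recovered alignments also gave 0 in each of them. All 9 from EH25 to EH50 in UC7 were rises. In UC413 that interval had 17 such genes, all rises (39.5%, beside 21% of all models). Values were higher at EH50 than at EH25 in 37 of the 43 genes in UC7 (50.5% of all models) and in 38 in UC413 (51.6%). Without UC7 EH25 replicate 2 the count from EH10 to EH25 in UC7 was 3 (6.98%, beside 8.77% of all models). The median log2 fold change of the 43 genes was 0.11 and 0.20 in UC7 and 0.00 and 0.29 in UC413 for the first and the later interval, beside medians over all models of 0.00 to 0.01.

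In UC413 Glyma.12G241700 went from 5.13 ± 0.778 scaled RPKM at EH25 to 8.43 ± 0.830 at EH50 (SD, n = 2), a log2 fold change of 0.69 (SE 0.13, limma adjusted p = 0.015). Glyma.09G002600 went from 4.93 ± 0.722 to 7.49 ± 0.628 (SD, n = 2), with 0.59 (SE 0.13, adjusted p = 0.031 in limma). The same ETR1-type genes in UC7 had 4.70 ± 0.122 and 5.85 ± 0.0571, and 4.55 ± 0.203 and 5.27 ± 0.150 (SD, n = 2), at these stages, without a call. Glyma.08G087300 went from 11.2 ± 2.06 to 17.6 ± 1.52 in UC413 (SD, n = 2; 0.65, SE 0.15, adjusted p = 0.0367 in limma) and had 6.82 ± 0.0285 and 9.59 ± 0.821 in UC7. Glyma.02G229400, whose Arabidopsis match ETO1 restrains ethylene synthesis, went from 3.44 ± 1.37 to 6.54 ± 0.536 in UC413 (SD, n = 2; 0.93, SE 0.22, adjusted p = 0.0431 in limma) and had 2.89 ± 0.0883 and 4.28 ± 0.0955 in UC7. The summed xylem markers were 104 and 154 in UC413 EH25 and 280 and 259 in UC413 EH50.

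Whether the isolines differed in the change from EH25 to EH50 was not tested. The change of the isoline difference was tested from EH10 to EH25 and from EH10 to EH50. No ethylene gene was called in either with limma or limma-voom, and limma called no model of the whole series (background 0% and 0%). At an unadjusted p under 0.05 there were 1 and 0 genes (0.962% and 3.76% of all models), the former being the EBF1-type gene Glyma.04G147000 with a change of -1.17 on the log2 scale (95% interval -2.20 to -0.13). The count of rises in UC413 from EH25 to EH50 fell to 0 without UC413 EH25 replicate 1 (0.962% of all models called) or UC413 EH50 replicate 1 (1.08%). It was 1 without UC413 EH50 replicate 2 (2.64%), either UC7 EH50 replicate (4.2% and 4.21%) or either UC413 EH10 replicate (3.85% and 3.84%), and 10 without UC413 EH25 replicate 2 (6.21%). It was 0 with the stranded libraries only (0.577%).

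The whole seed coat and EH100 libraries have no replicates, so their values carry no test and a difference of at least 1.5-fold is only counted. Between the isolines 9 of the 43 genes were past 1.5-fold at EH100 (18.6% of all models), 0 at WS10 (7.15%), 7 at WS25 (13.2%) and 8 at WS50 (11.7%). All 9 genes at EH100 (20.9% of the 43) and all 8 at WS50 (18.6%) were higher in UC413. At WS25 4 were higher (9.3%) and 3 lower (6.98%). Of all models, 6.97% were past 1.5-fold higher in UC413 and 11.6% lower at EH100. These shares were 4.9% and 8.34% at WS25, and 6.41% and 5.33% at WS50. The genes higher at EH100 included 2 of the ETR2-type genes, the RAN1-type gene Glyma.08G087300 and 3 of the 6 ETO1-type genes. From EH50 to EH100, 7 genes in UC7 (20.7% of all models) and 0 in UC413 (8.9%) were past 1.5-fold, and all 4 RAN1-type genes had higher values at EH100 in both isolines, by a median of 0.52 and 0.45 on the log2 scale. The embryo markers of UC7 EH100 were the highest of the series.

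Compared with the extended hilum of the same stage, whole seed coats had lower median values of the EBF1-type genes under each scaling, except at WS10 in UC7 with the RPKM as deposited, where the median was 0.25 higher on the log2 scale. In UC7, 0 of the 43 genes were past 1.5-fold at the first stage (9.77% of all models), 6 at the next (16.2%) and 15 at WS50 (24.8%). In UC413 the counts were 2 (11.5%), 4 (11.6%) and 2 (12.4%). The 15 genes of UC7 at WS50 were all 8 EBF1-type genes, 4 of the 5 EIN3-type genes and 2 ETO1-type genes, lower in the whole seed coat, and the EIN4-type gene Glyma.19G249100, which was higher. With the other scalings 7 to 12 genes were past 1.5-fold in that comparison. The median log2 difference of the 8 EBF1-type genes, whole seed coat minus extended hilum, was -0.27, -0.62 and -0.75 in UC7 and -0.34, -0.53 and -0.28 in UC413, and the 11 tested receptor genes had medians of 0.09, 0.03 and -0.11 and of -0.16, 0.10 and 0.08. The UC7 WS50 library was made with the non-stranded kit, and in it the xylem markers summed to 106, against 245 and 228 in UC7 EH50.

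**Figure D4:**
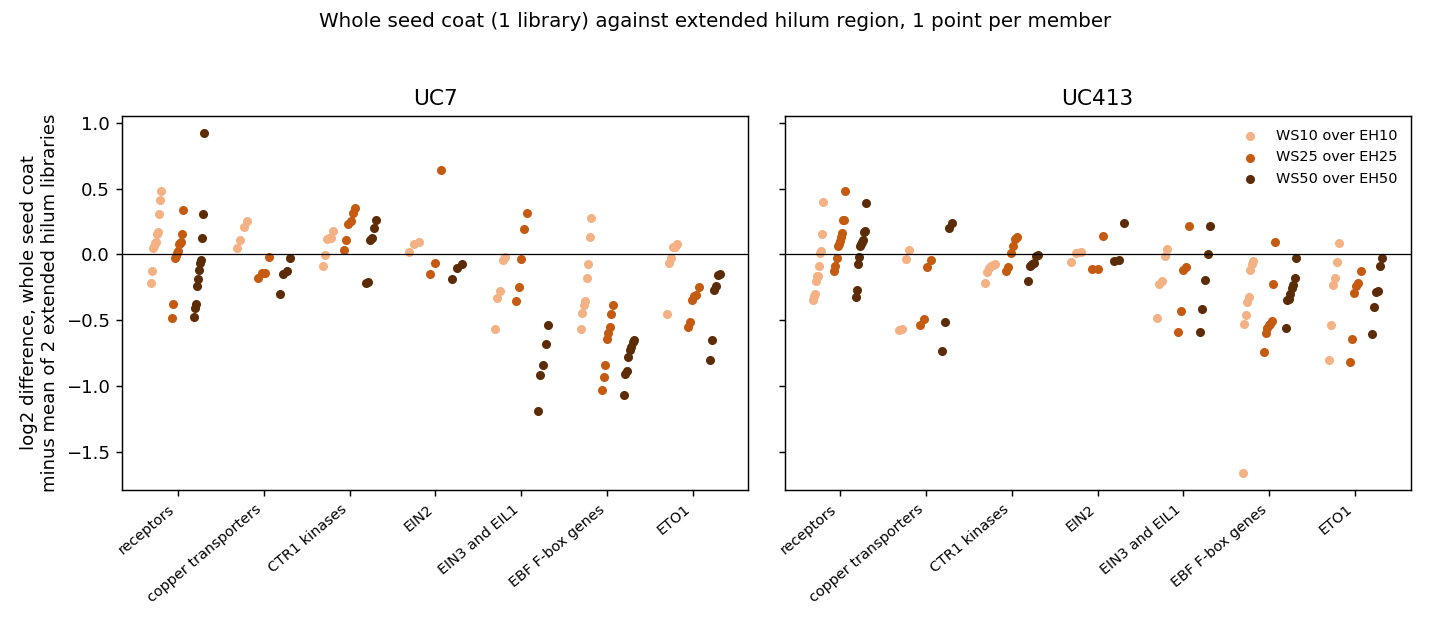
The log2 difference between the 1 whole seed coat library and the mean of the 2 extended hilum libraries of the same isoline and stage, 1 point per gene, by role and with UC7 on the left and UC413 on the right. The points of the EBF1-type genes lie mostly below 0, all 8 of them at WS25 and WS50 in UC7 and at WS10 and WS50 in UC413.

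The pathway was also examined through 37 further genes whose best Arabidopsis match is another component (RTE1, EIN5, EIL3, EOL1, ERF1, EDF1, HLS1, ARGOS and a homologue of RTE1), of which 19 were tested. At EH10 1 was called (5.26%, beside 6.36% of all models), at EH25 0 (beside 2.21%) and at EH50 2 (10.5%, beside 8.07%), which is near the background. Glyma.17G229300, matching RTE1, a membrane protein that promotes signalling by the receptor ETR1 in Arabidopsis, had 1.09 and 1.78 scaled RPKM in UC7 EH10 against 3.45 and 4.09 in UC413 EH10. It had 1.01 and 1.40 against 2.21 and 3.60 at EH25, and 1.43 and 1.70 against 4.42 and 4.56 at EH50. The isolines were apart at each stage, and the log2 fold change was 1.28 (SE 0.25, limma adjusted p = 0.0195) at EH10, 1.09 (adjusted p = 0.058) at EH25 and 1.39 (SE 0.25, adjusted p = 0.0161) at EH50.

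The EDF1-matching gene Glyma.02G099500, of a family of transcription factors that respond to ethylene in Arabidopsis, was the only lower one. It had 5.01 and 2.95 scaled RPKM in UC7 EH50 and 1.29 and 1.49 in UC413 EH50 (log2 fold change -1.33, SE 0.33, limma adjusted p = 0.0412), while at EH10 the isolines overlapped, with 4.37 and 3.91 against 2.23 and 4.91. The 14 genes matching ERF1, a direct target of EIN3 in Arabidopsis, had means over the 20 libraries of at most 0.114 scaled RPKM and none was tested. No gene of this list was called between stages or in the change of the isoline difference.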

How the data were processed

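Per the labels and the study's methods, the authors sequenced seed coat RNA on an Illumina platform as single reads of 100 nt, aligned them with Bowtie v1 to 88647 Glyma cDNA models with at most 3 mismatches and at most 25 alignments per read, and deposited 1 RPKM value per model and library, without pooling replicates. A read was counted for each model to which it aligned, so similar genes and splice forms share reads. RPKM times model length gave whole multiples of 1 step for 100% of models in each library (tolerance 0.01), and these recovered alignments were used for depth. Intervals cover the spread between libraries, and nothing in the labels says whether replicates came from separate plants.

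RPKM was divided by median-of-ratios size factors, and log2(value + 0.25) was fitted with limma 3.58.1 (trend in the prior variance) in R 4.3.3, with 6 groups of 2 libraries in 1 fit, for models that reached an RPKM of 1 in 2 or more libraries (57568 models of 31639 genes). P-values are two-sided and were adjusted by Benjamini-Hochberg over all models for each of 9 comparisons. DESeq was the authors' test and was not used here. The procedure was also run on simulated counts, drawn independently for each model with the same dispersion. These had no shared reads, pairing or kit difference, so the run does not show how reliable the calls in the real data are.

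The deviations of libraries with the same replicate number correlated across models between isolines (r = 0.19 at EH10, 0.23 at EH25 and 0.47 at EH50, the last also a difference in kit). The number was therefore taken to pair the isolines within a stage, but only in the alternative fit with a replicate block. The main fit had no such block, so its errors and p-values are unpaired. Between stages the number was not taken as a pairing (r from -0.18 to 0.23).

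Genes called between isolines are given in every library, genes called between stages as means with SD, and of the other pathway genes only called ones are named. The 2 abundant EBF1-type genes were given in every extended hilum library after their values were seen. Genes and lists were chosen with earlier results of these data known. Alternatives were another scaling, pseudocount, filter or set of models, each stage alone, stranded libraries, limma-voom, a replicate block, and leaving out each library.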

Additional observations from a re-analysis of the deposited data

How the results depend on the processing

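The 18 called values of ethylene genes were refitted in 410 cases. Of these, 277 kept the call, the others lost it and 0 changed sign. Many refits, such as those with a block or without a library outside the comparison, cannot change the log2 fold change. The unchanged signs are therefore no measure of how reliable the calls are. With the replicate number as a block within each stage the counts between isolines were 5, 1 and 6 (11%, 3.68% and 13.4% of all models called), with calls lost for Glyma.20G087000 and Glyma.04G147000 at EH10 and no other. A block within each isoline, chosen after seeing the data, left the count from EH25 to EH50 in UC413 at 4 but lost Glyma.09G002600. At EH10 (7) the count was 33 with RPKM as deposited (64.3% of all models), where the median of all models shifted to 0.71 on the log2 scale (0.32 at EH25 and 0.24 at EH50), 12 with equal sums outside the rDNA region (shift 0.15; 11.2% of all models) and 2 with stranded libraries (2.92%). At EH25 (1) it was 2, 3 and 0 in the same order (4.18%, 3.79% and 1.17% of all models), and 0 with a pseudocount of 1, without a filter, with 1 model per gene or with each stage alone. At EH50 (6) it was 10 with each stage alone (12.5% of all models), of which 2 were lower, and 0 with stranded libraries (0.0122%). From EH25 to EH50 in UC413 (4) it was 0 with RPKM as deposited (3.72%), 2 with upper quartile scaling (5.44%) and 0 with stranded libraries (0.577%). Leaving out a library gave counts of 0 to 7 at EH10, 0 to 2 at EH25, 0 to 7 at EH50, 0 to 10 from EH25 to EH50 in UC413 and 0 to 3 from EH10 to EH25 in UC7; the 3 calls came without UC7 EH25 replicate 2. Limma-voom gave 7, 1, 6 and 5. The causes of these changes in the counts were not tested. Alignments per library do not limit the abundant genes, and 3 alignments correspond to 0.0200 to 0.0406 scaled RPKM for a model of 1 kb.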

Other observations

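Splice forms of the ETR1-type and of 2 ETR2-type genes gave nearly equal differences between the isolines at EH50. The 17 tested models of Glyma.09G002600 had log2 fold changes of 0.48 to 0.52 at EH50, the 5 of Glyma.12G241700 had 0.51 to 0.52, the 5 of Glyma.20G202200 had 0.69 to 0.70 and the 7 of Glyma.10G188500 had 0.69 to 0.70. Forms of the CTR1-type gene Glyma.10G104500 were further apart, at -0.13 and -0.02. A read was counted for every model to which it aligned, so these models share reads and are not separate measurements.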
